A study of Homo sapiens with 8 samples.

Results

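The tumour necrosis factor (TNF) receptor superfamily is a group of receptors built on cysteine-rich extracellular repeats that bind ligands of the TNF family. Some members carry a cytoplasmic death domain that recruits FADD and caspase-8 or related adaptors and can start apoptosis. Others bind TRAF adaptors and signal to NF-κB, and decoy members bind ligand without passing on a death signal. The 10 receptors described here are a chosen set of members other than the receptors of TNF-α: TNFRSF9, CD40, LTBR and TNFRSF12A among the TRAF-binding receptors, FAS, TNFRSF10A, TNFRSF10B and TNFRSF21 among the death-domain receptors, and TNFRSF10D and TNFRSF11B as decoys. They were taken by gene symbol. All probe sets that the platform annotation pairs with 1 of these symbols were used, which gave 18 probe sets for the 10 genes, out of 45253 probe sets for 18239 genes.

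The cells were NS-SV-AC, an immortalised line labelled as acinar cells of the human salivary gland. They were given TNF-α, an inflammatory cytokine, at 20 ng/ml, or BSA (bovine serum albumin) as the control, for 2, 6, 12 or 24 h. Each treatment and time was read on 1 GeneAtlas array, which makes 4 arrays a treatment with nothing replicated, and the labels do not say whether the times came from separate cultures. A p-value here measures the spread between these arrays, which may be technical. Where time is a factor in the fit, that spread is of the TNF-α minus BSA difference between times. It then also holds any change of that difference with time. All values are log2 levels per probe set, and all differences are TNF-α minus BSA, so that 1 is a 2-fold difference. In such bulk samples fewer cells that express a gene and less RNA per cell cannot be told apart.

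The TNF-α array at 24 h stood apart from the other 7. Its 3′ probe set of GAPDH read 6.28 above the 5′ one, against 0.20 to 0.37 on the other arrays, and its correlation with the other 7 arrays across genes was 0.907 to 0.946, against 0.962 to 0.994 among those 7. The 24 h difference had a median of 0.20 over all genes, against −0.02 to 0.00 at the earlier times. A wide gap between the ends of a transcript is a usual sign of degraded RNA. The mean difference of each of the 10 receptors is therefore given with and without the 24 h pair. Among the markers of the labelled cell type, the acinar water channel AQP5 lay between 4.03 and 4.13 in TNF-α and between 3.88 and 4.06 in BSA, under the median of all genes (5.16), and none of the 7 acinar markers measured had a mean above that median. The epithelial keratin KRT18 lay above it, at 7.36 to 10.16 in TNF-α and 9.84 to 10.34 in BSA, while EPCAM lay between 2.87 and 3.57 in TNF-α and between 2.83 and 2.96 in BSA. The pan-leukocyte marker PTPRC lay between 3.03 and 3.22 in TNF-α and between 3.01 and 3.27 in BSA, and 1 of 6 immune markers measured (CD68) had a mean above the median of all genes. Of 7 epithelial markers 2 did (KRT18 and KRT8), and of 6 fibroblast and endothelial markers 2 did, COL3A1, at 8.91 to 9.72 in TNF-α and 9.15 to 9.93 in BSA, and PDGFRB. These markers do not bear out the acinar label, and the cells are called NS-SV-AC cells.

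Over 2, 6 and 12 h, 2 of the 10 receptors were called higher with TNF-α by limma, where 0.318% of all genes were. None was called lower, where 0.0493% of all genes were. TNFRSF9 was higher by 4.63 ± 0.37 (SE, 3 pairs of arrays), which is 24.8-fold, and TNFRSF10B by 0.82 ± 0.07, which is 1.76-fold. That is the brightest probe set of TNFRSF10B, and its other probe sets gave 0.47 and 0.23 and did not pass. FAS was 3.83-fold higher on the single 12 h pair, and CD40 was 2.04 higher (log2) by one probe set and 0.43 by the other, but neither gene passed the test over the 3 times. The plot of levels by hour shows 4 courses: an early large difference for TNFRSF9, an early small one for TNFRSF10B, late ones for FAS and CD40, and no more than 0.49 either way at 2 and 6 h for the other 6.

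**Figure D1:**
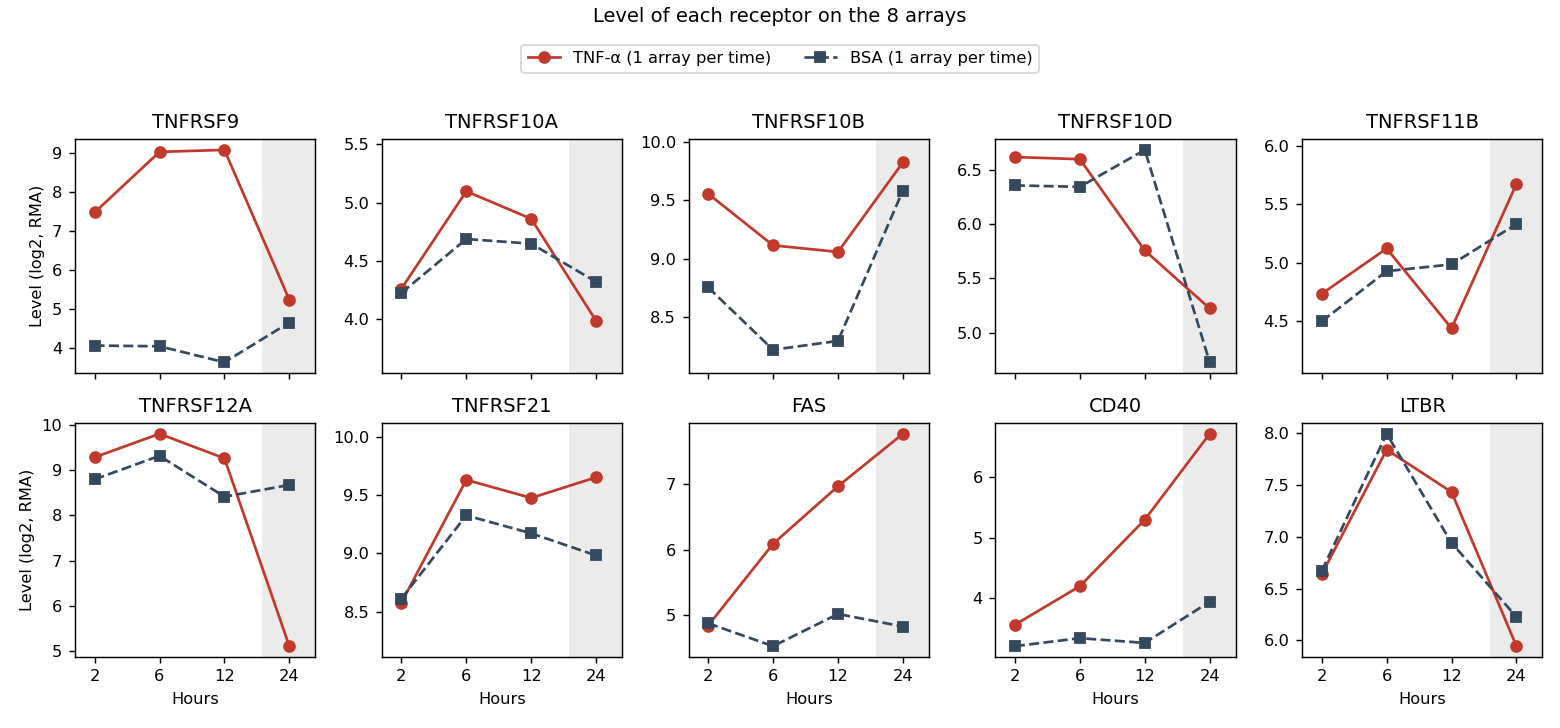
Level (log2, RMA) of the brightest probe set of each of the 10 receptors against hours of treatment, with 1 TNF-α array (red circles) and 1 BSA array (dark squares) per time, and a separate vertical scale in each panel. Grey marks 24 h, whose TNF-α array had the GAPDH gap of 6.28. TNFRSF9 reaches 9.08 in TNF-α at 12 h, against 3.62 in BSA, and FAS and CD40 move apart from BSA from 6 h on.

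With limma on 18239 genes, 2 of the 10 receptors were past an adjusted p of 0.05 and higher from 2 to 12 h, where 0.318% of all genes were, and 0 were lower, where 0.0493% of all genes were. The adjusted p was 0.0191 for TNFRSF9 and 0.0240 for TNFRSF10B. At an unadjusted p under 0.05 there were 5 of the 10 (TNFRSF9, TNFRSF10B, TNFRSF12A, FAS and CD40), against 14.0% of all genes. Over all 4 times limma called 0 of the 10 receptors, where it called 0.0164% of all genes, and 4 of the 10 had an unadjusted p under 0.05 (TNFRSF9, TNFRSF10B, FAS and CD40), against 7.51% of all genes. Tested by itself, 2 of the 18 probe sets passed from 2 to 12 h and were higher, 1 of TNFRSF9 and 1 of TNFRSF10B, where 0.186% of the 45253 probe sets were. Both calls rest on few arrays. Without the 6 h pair limma gave neither (adjusted p = 0.303 for each, with 1 residual degree of freedom). Without the 12 h pair TNFRSF10B had an adjusted p of 0.0538. Without the 2 h pair 5 of the 10 passed. That fit called 1094 of the 18239 genes, against 67 with all pairs from 2 to 12 h. It also had 1 residual degree of freedom, so the 5 are not a result about the receptors. With time left out of the model neither passed, with a trended robust variance TNFRSF9 had an adjusted p of 0.142, and with the mean of its probe sets TNFRSF10B had 0.0642.

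Without any test, the receptors at least 2-fold higher in TNF-α were TNFRSF9 at 2 h (0.493% of all genes), TNFRSF9 and FAS at 6 h (1.38%), TNFRSF9, FAS and CD40 at 12 h (1.29%), and FAS and CD40 at 24 h (6.1%). The second probe set of CD40 was under 2-fold at all 4 times. The only receptor at least 2-fold lower was TNFRSF12A, at 24 h, where 6.67% of all genes were. At each of 2, 6 and 12 h TNF-α was the higher array for 5 of the 10 (TNFRSF9, CD40, TNFRSF12A, TNFRSF10A and TNFRSF10B), against 15.7% of all genes. By the brightest probe sets, all 3 TNF-α arrays from 2 to 12 h lay above all 3 BSA arrays for TNFRSF9, CD40 and TNFRSF10B, against 6.18% of all genes. The second probe set of CD40 did not show this order. The first was chosen by a mean that its TNF-α arrays raise, so its order is not support for CD40.

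**Figure D2:**
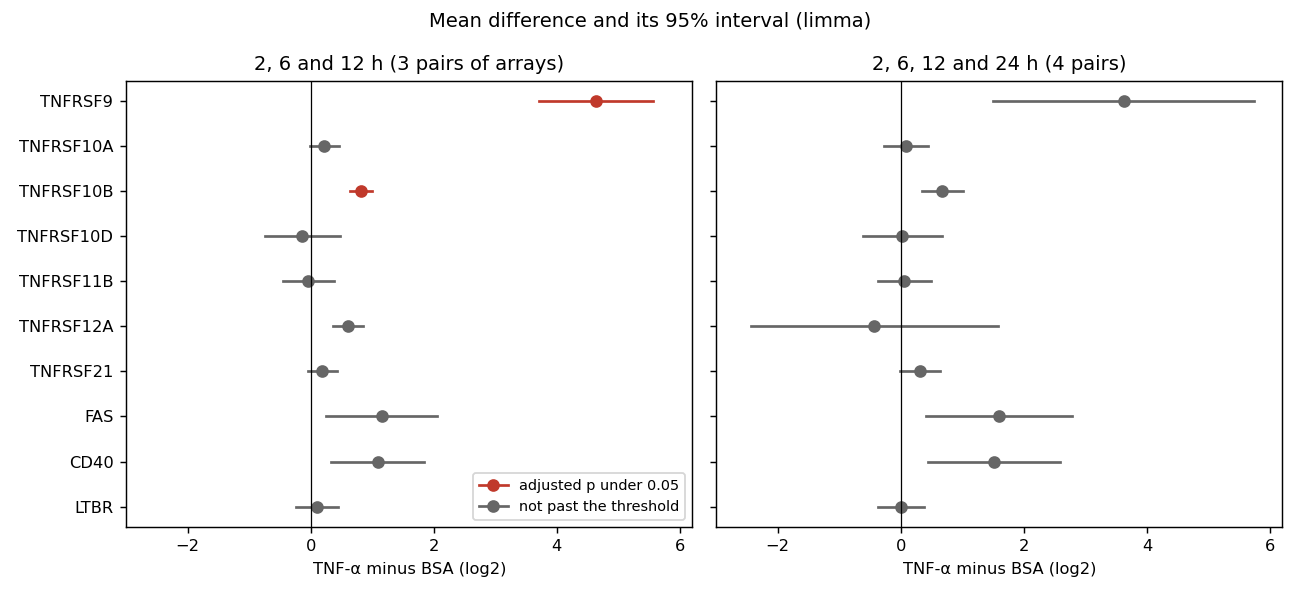
Mean TNF-α minus BSA difference (log2, horizontal axis) of each receptor with its 95% interval from limma, for 2, 6 and 12 h (left) and for all 4 times (right). Red marks the receptors past an adjusted p of 0.05, TNFRSF9 at 4.63 and TNFRSF10B at 0.82 on the left, and none on the right, where the interval of TNFRSF12A spans −2.44 to 1.57.

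TNFRSF9, also called 4-1BB or CD137, is a co-stimulatory receptor best known on activated T cells, where it signals through TRAF1 and TRAF2. Its probe set read 7.47, 9.03, 9.08 and 5.23 in TNF-α at 2, 6, 12 and 24 h, against 4.05, 4.03, 3.62 and 4.64 in BSA. From 2 to 12 h the lowest TNF-α array was 3.42 above the highest BSA array, and the means were 8.53 ± 0.92 in TNF-α and 3.90 ± 0.24 in BSA (SD, n = 3 times each). The difference was 3.42 at 2 h, 5.00 at 6 h and 5.46 at 12 h. The BSA level of 3.62 at 12 h lay below the lower quartile of gene means (3.76), and no detection call was used, so the folds of TNFRSF9 rest on a BSA level not shown to be above background. At 24 h it was 0.59, with the TNF-α array at −3.86 relative to that of 12 h, and this is the array with the GAPDH gap of 6.28 (what RNA quality had to do with the low 24 h value was not tested). Over the 4 times the difference was 3.62 ± 0.83 (SE, 4 pairs, adjusted p = 0.591).

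With the TNF-α array of 24 h left out, the genes whose level followed TNFRSF9 most closely were NFKBIE, an inhibitor of NF-κB (Pearson r = 0.992 over 7 arrays), the NF-κB subunit RELB (0.991), the adhesion molecule VCAM1 (0.991) and the interferon gamma receptor chain IFNGR2 (0.991). They were taken from 3152 genes whose levels spanned at least 1 over those arrays. These arrays share a split of 3 TNF-α and 4 BSA arrays, so any gene with a like split correlates highly.

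The promoter of TNFRSF9 is shown because this gene had the highest difference of the 10 and TNF-α signals through NF-κB. RefSeq promoter windows, from 250 bases before to 50 bases after a start site (GRCh38.p14), were searched for the NF-κB consensus on both strands, and 11.3% of all 35116 windows held it. Windows of 4 of the 10 receptors were searched, those of TNFRSF9, FAS, LTBR and TNFRSF21, and those of the other 6, TNFRSF10B and CD40 among them, are not analysed here. The TNFRSF9 window (chr1:7940790-7941089, minus strand) held a pair of overlapping matches, 1 on each strand, the first starting 74 bases before the start site. Of 3 windows of FAS, the one at chr10:88991181-88991480 (plus strand) held a match, the same 10 bases on both strands, 157 bases before its start site, and the other 2 held none. The window of LTBR (chr12:6383912-6384211, plus strand) and that of TNFRSF21 held none. The share of 11.3% is per window, and FAS had 3 windows. Whether a match goes with a difference was not tested. Capitals mark the matches, and a match is a run of letters, not a shown binding site.
TNFRSF9: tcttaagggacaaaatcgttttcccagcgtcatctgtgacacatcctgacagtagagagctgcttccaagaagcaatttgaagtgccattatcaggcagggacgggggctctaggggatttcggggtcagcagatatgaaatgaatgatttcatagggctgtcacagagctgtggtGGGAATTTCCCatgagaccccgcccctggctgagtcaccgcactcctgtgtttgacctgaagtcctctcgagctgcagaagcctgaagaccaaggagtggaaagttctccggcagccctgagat
FAS: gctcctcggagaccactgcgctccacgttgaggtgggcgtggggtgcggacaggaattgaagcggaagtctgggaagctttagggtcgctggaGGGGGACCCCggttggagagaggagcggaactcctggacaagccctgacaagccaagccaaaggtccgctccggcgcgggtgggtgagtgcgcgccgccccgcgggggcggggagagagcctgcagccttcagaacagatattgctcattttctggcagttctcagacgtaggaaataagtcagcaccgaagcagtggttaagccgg
LTBR: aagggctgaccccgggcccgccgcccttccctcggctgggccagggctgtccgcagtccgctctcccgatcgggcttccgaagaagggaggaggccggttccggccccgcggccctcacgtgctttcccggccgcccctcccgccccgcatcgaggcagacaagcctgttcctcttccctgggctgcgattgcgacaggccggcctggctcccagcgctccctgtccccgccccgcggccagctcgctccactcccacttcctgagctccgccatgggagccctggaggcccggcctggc

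CD40 is the receptor through which T cells license B cells and antigen-presenting cells, and many epithelia can express it. The probe set that stands for it read 3.56, 4.20, 5.30 and 6.72 in TNF-α at 2, 6, 12 and 24 h, against 3.21, 3.34, 3.26 and 3.94 in BSA. The TNF-α arrays stood higher at each later time, while BSA stayed within 0.13 from 2 to 12 h and was 0.74 above its 2 h level at 24 h. The BSA levels from 2 to 12 h and the TNF-α level at 2 h lay below the lower quartile of gene means (3.76). All BSA levels of the second probe set did too. No detection call was used, so the CD40 differences rest on a BSA level not shown to be above background. The differences were 0.36, 0.86, 2.04 and 2.78, and their mean from 2 to 12 h was 1.09 ± 0.30 (SE, 3 pairs, adjusted p = 0.251), so the test was not passed. This probe set was taken for its higher mean over the 8 arrays, which it owes to the TNF-α arrays, since in BSA its mean was 3.44 and that of the second probe set 3.58. The second gave differences of 0.11, 0.17, 0.43 and 0.03, with a mean from 2 to 12 h of 0.23 ± 0.09 (adjusted p = 0.377 over all probe sets), so the size of the CD40 difference depends on the probe set. The probe sets of CD40 had the same sign at all 4 times and differed in size by 1.61 at 12 h and 2.75 at 24 h. The mean of both gave 1.23 at 12 h.

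LTBR, the lymphotoxin beta receptor, drives lymphoid organ formation and the non-canonical NF-κB pathway. Its brighter probe set read 6.64, 7.84, 7.43 and 5.95 in TNF-α, against 6.67, 7.99, 6.94 and 6.23 in BSA at 2, 6, 12 and 24 h. Both arms were highest at 6 h, and in BSA that array was 1.32 above the 2 h array, more than any TNF-α minus BSA difference of this gene (−0.03, −0.15, 0.49 and −0.28). The mean difference from 2 to 12 h was 0.10 ± 0.14, with a 95% interval of −0.24 to 0.44 (adjusted p = 0.786). The other probe set of LTBR differed by −0.13, −0.30, 0.09 and −0.07.

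TNFRSF12A, also called Fn14, is the receptor of TWEAK (TNFSF12) and is an injury-responsive gene of epithelia. Its single probe set read 9.28, 9.80, 9.26 and 5.12 in TNF-α at 2, 6, 12 and 24 h, against 8.79, 9.31, 8.41 and 8.67 in BSA. From 2 to 12 h the TNF-α array was the higher of each pair, by 0.49, 0.49 and 0.85, though the 2 h and 12 h TNF-α arrays lay below the 6 h BSA array. The mean was 0.61 ± 0.10 (SE, 3 pairs), a 1.52-fold difference with a 95% interval of 0.36 to 0.85, and did not pass (adjusted p = 0.128). At 24 h the difference was −3.55, and over the 4 times the mean was −0.43 ± 0.79, so the 24 h pair turned its sign. That TNF-α array is the one with the 3′ to 5′ gap, whose part in this value was not tested.

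FAS (CD95) is the receptor of Fas ligand and a main trigger of caspase-8 dependent apoptosis. Its brighter probe set read 4.85, 6.09, 6.96 and 7.76 in TNF-α at 2, 6, 12 and 24 h, against 4.88, 4.53, 5.02 and 4.83 in BSA. At 2 h the arms were level, and from 6 h on every TNF-α array lay above all BSA arrays by at least 1.07. The second probe set read 3.86, 5.25, 6.27 and 6.89 in TNF-α, against 3.90, 3.90, 4.18 and 3.72 in BSA. The differences of the brighter one were −0.03, 1.55, 1.94 and 2.92, and those of the other −0.04, 1.36, 2.08 and 3.17. The probe sets of FAS differed from each other by at most 0.25 at any time, the 24 h pair included, where the median gap between probe sets of a gene was 0.63 over 11822 genes.

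The mean difference of FAS from 2 to 12 h was 1.15 ± 0.36 (SE, 3 pairs, adjusted p = 0.279) and over the 4 times 1.60 ± 0.47 (adjusted p = 0.652), so it passed neither fit. Both fits take the growth of the difference with time as spread. A limma model with treatment, log2 hours and their product gave a slope of 0.80 ± 0.09 per doubling of the hours for FAS (95% interval 0.57 to 1.03) and 0.70 ± 0.18 for CD40 (0.26 to 1.14). These had adjusted p of 0.583 and 0.827, and the model called 0 of the 10 receptors and 0% of the 18239 genes. At an unadjusted p under 0.05 it held FAS and CD40 of the 10, and 675 of all genes (3.70%). These slopes are of the brighter probe sets. With the mean of probe sets the same model gave 0.84 for FAS and 0.35 for CD40 (adjusted p = 0.450 and 0.764). The size of the CD40 slope thus depends on the probe set. Without the 24 h pair the slope was 0.79 for FAS and 0.62 for CD40, and neither passed. For TNFRSF9 the slope was −0.56 ± 0.67, and 0.81 without the 24 h pair.

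TNFRSF10B (DR5) and TNFRSF10A (DR4) are the death receptors of TRAIL, the product of TNFSF10. The brightest probe set of TNFRSF10B read 9.56, 9.11, 9.06 and 9.82 in TNF-α at 2, 6, 12 and 24 h, against 8.76, 8.22, 8.30 and 9.58 in BSA. The differences of 0.80, 0.89 and 0.76 from 2 to 12 h were close to each other (SD 0.07, n = 3 times), and all 3 TNF-α arrays lay above all 3 BSA arrays, with means of 9.24 ± 0.27 in TNF-α and 8.42 ± 0.29 in BSA. At 24 h the difference was 0.24, and the BSA array was itself 0.83 above its 2 h level. Over the 4 times the mean was 0.67 ± 0.13 (adjusted p = 0.502).

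The other probe sets of TNFRSF10B gave smaller differences, 0.52, 0.48 and 0.43 for one and 0.15, 0.37 and 0.17 for the other at 2, 6 and 12 h, and neither passed by itself (adjusted p = 0.109 and 0.345 over all probe sets). At 24 h the first stood at 1.22 and the second at −0.65, so the 3 probe sets spanned 1.87. With the mean of the 3 the difference from 2 to 12 h was 0.51 and no longer passed (adjusted p = 0.0642). The brightest carries the suffix _x_at, which in the maker's naming marks probes that may also match other transcripts, and the TRAIL receptor genes are close relatives, so its value is uncertain as to the gene. Over the same 7 arrays the levels most like it were those of RAB9A (Pearson r = 0.971), NCOA7 (0.951), the stress-response gene GADD45A (0.938) and the transcription factor CEBPB (0.908).

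For TNFRSF10A the single probe set read 4.26, 5.10, 4.86 and 3.99 in TNF-α, against 4.23, 4.69, 4.65 and 4.32 in BSA. The arms overlapped, and the mean difference from 2 to 12 h was 0.22 ± 0.09 with a 95% interval of −0.01 to 0.45 (adjusted p = 0.376).

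TNFRSF21 (DR6) is a death-domain receptor studied mostly in neurons and lymphocytes. Its brightest probe set read 8.58, 9.63, 9.47 and 9.65 in TNF-α at 2, 6, 12 and 24 h, against 8.61, 9.32, 9.17 and 8.98 in BSA. In both arms the 2 h array was the lowest, by at least 0.37 in BSA and 0.90 in TNF-α. From 2 to 12 h the mean difference was 0.19 ± 0.10 with a 95% interval of −0.05 to 0.43 (adjusted p = 0.437). The 3 probe sets gave close differences at 6 h (0.30, 0.34 and 0.24) and at 12 h (0.30, 0.39 and 0.33). At 24 h they gave 0.67, −0.85 and −0.32, a gap of 1.52 against 0.09 at 12 h.

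TNFRSF10D (DcR2) is a TRAIL receptor with a truncated death domain. Its brighter probe set read 6.62, 6.60, 5.76 and 5.22 in TNF-α at 2, 6, 12 and 24 h, against 6.36, 6.34, 6.68 and 4.73 in BSA. The BSA array of 24 h stood at −1.63 relative to that of 2 h. At 12 h TNF-α was lower, by −0.93, where the other probe set gave 0.13, and at 2 and 6 h it was 0.26 and 0.25 higher. The mean from 2 to 12 h was −0.14 ± 0.24, with a 95% interval of −0.74 to 0.47 (adjusted p = 0.849).

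TNFRSF11B encodes osteoprotegerin, a secreted decoy that binds RANKL and TRAIL. Its probe set read 4.74, 5.12, 4.44 and 5.68 in TNF-α at 2, 6, 12 and 24 h, against 4.50, 4.93, 4.99 and 5.33 in BSA. The 12 h difference of −0.55 ran against those of 0.24, 0.19 and 0.34 at the other times. Its mean from 2 to 12 h was −0.04 ± 0.17, with a 95% interval of −0.45 to 0.37 (adjusted p = 0.944). By the probe set that stands for the gene, both decoys were lower in TNF-α at 12 h and higher at the other 3 times, and neither passed a test.

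With the 24 h pair included, none of the differences passed. That of CD40 was 1.51 ± 0.42 over the 4 times (adjusted p = 0.644) and that of TNFRSF21 0.31 ± 0.13 (adjusted p = 0.652). For TNFRSF10A, TNFRSF10D, TNFRSF11B and LTBR they were 0.08, 0.02, 0.06 and 0.01, with SEs of 0.14 to 0.25 and adjusted p of 0.825 to 0.990.

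**Figure D3:**
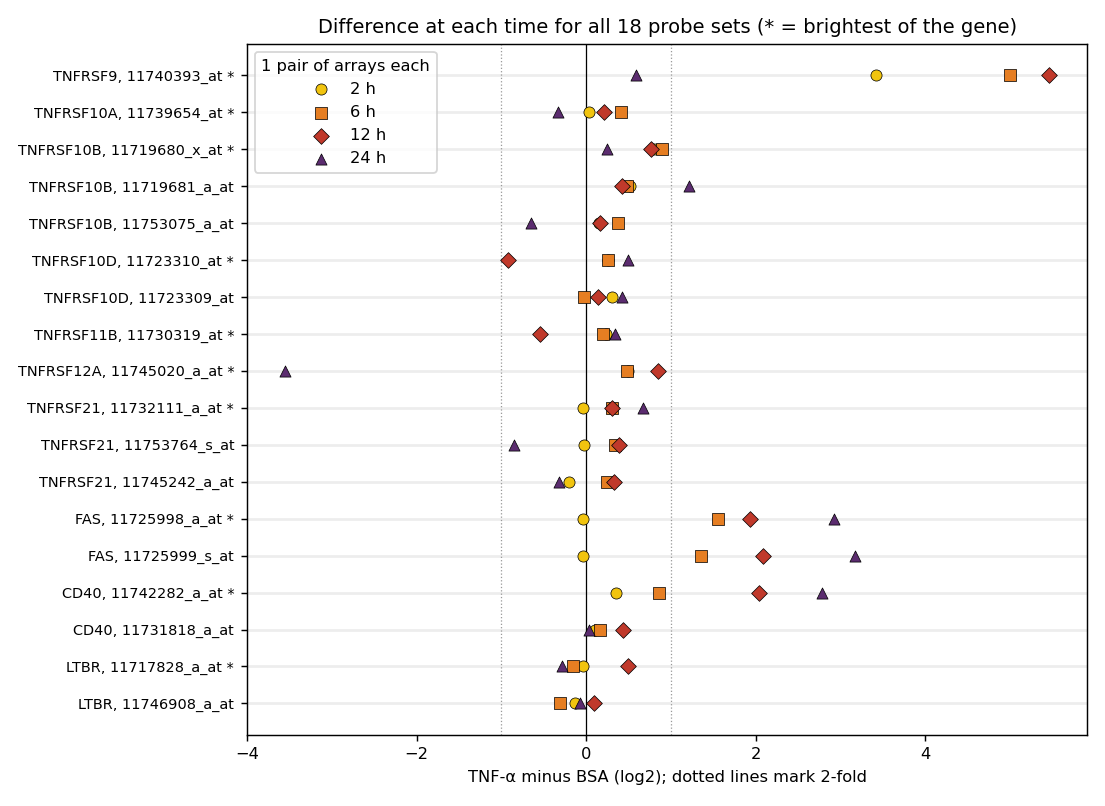
TNF-α minus BSA difference (log2, horizontal axis) at 2, 6, 12 and 24 h for each of the 18 probe sets, with 1 pair of arrays per point, dotted lines at 2-fold and a star for the brightest probe set of a gene. Both probe sets of FAS lie together at all times, while those of TNFRSF10B and TNFRSF21 lie together from 2 to 12 h more than at 24 h (purple triangles), where they span 1.87 and 1.52.

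Across all genes with over 1 probe set, the median gap between the probe sets of a gene in the TNF-α minus BSA difference was 0.18, 0.24 and 0.24 at 2, 6 and 12 h and 0.63 at 24 h. For TNFRSF10B, TNFRSF21, CD40 and FAS the gap was widest at 24 h, and for TNFRSF10D and LTBR at 12 h (1.06 and 0.40). Which part of a transcript each probe set reads was not examined. After quantile normalisation of the deposited values again, the 24 h differences were 0.48 for TNFRSF9, −3.60 for TNFRSF12A, 2.72 for FAS and 2.65 for CD40.

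In BSA alone the levels of the 10 receptors also differed between times. Against the 2 h array they lay between −0.53 and 1.32 at 6 h, between −0.46 and 0.56 at 12 h and between −1.63 and 0.83 at 24 h. A 2-fold difference was reached by LTBR at 6 h and by TNFRSF10D at 24 h, which was lower. The share of all genes 2-fold apart between BSA times was not counted, so this is not shown to be particular to the receptors. TNFRSF9 in BSA stayed within 1.02 over the 4 arrays, where its difference between arms exceeded 3.4 from 2 to 12 h.

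Ligands, other receptors of the superfamily and the adaptors that carry their signals were examined as whole lists. The 10 receptors had a median difference from 2 to 12 h of 0.41, against −0.01 over all genes. Of 18 other receptors measured, 0 passed from 2 to 12 h and 0 were 2-fold apart at any time, and their median was 0.04. The lists were chosen with earlier results known, so this contrast is not a test. Over the 8 arrays TNFRSF4 lay at 2.97 to 3.41, TNFRSF1B at 3.66 to 4.06, TNFRSF14 at 4.74 to 5.44 and TNFRSF1A at 6.80 to 8.19. The lower quartile of gene means was 3.76, and no detection call was used. The TNF-α receptor TNFRSF1A differed by −0.02, 0.36, 0.67 and −0.64 at 2, 6, 12 and 24 h, TNFRSF1B by 0.16, 0.18, 0.37 and −0.22, and the means from 2 to 12 h of TNFRSF14 and TNFRSF4 were 0.13 and 0.13.

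Of 8 ligands measured 0 passed, with a median of 0.06 from 2 to 12 h. TNFSF10, which encodes TRAIL, the ligand of TNFRSF10A, TNFRSF10B, TNFRSF10D and TNFRSF11B, read 4.44, 5.76, 6.41 and 4.59 in TNF-α, against 4.32, 4.33, 4.32 and 3.84 in BSA, a mean of 1.21 ± 0.35 from 2 to 12 h (adjusted p = 0.254). LTB, a subunit of the ligand of LTBR, was 0.17, 0.69 and 1.04 higher at 2, 6 and 12 h and −0.08 at 24 h (adjusted p = 0.231). The ligand of TNFRSF9, TNFSF9, differed by at most 0.39 at any time, FASLG by at most 0.36, and TNFSF11 (RANKL) by 0.29 at 12 h.

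Of 14 adaptors and signalling genes measured, 2 rose from 2 to 12 h, where 0.318% of all genes were called higher, and the median of the 14 was 0.37. RELB, an NF-κB subunit, was 2.51 ± 0.17 higher (adjusted p = 0.0125) and MAP3K14, the kinase NIK, 1.39 ± 0.12 (adjusted p = 0.0210). Over the 4 times limma called 0 of the 14, with an adjusted p of 0.287 for RELB and 0.483 for MAP3K14. TRAF1, which binds TNFRSF9, was 0.52, 2.45, 2.81 and 1.87 higher at 2, 6, 12 and 24 h, and CFLAR, which blocks caspase-8 at FAS and the TRAIL receptors, was 0.50, 1.74, 1.91 and 1.78 higher; neither passed (adjusted p = 0.201 and 0.180). FADD, the death-domain adaptor of these receptors, differed by −0.23, −0.25 and 0.24 from 2 to 12 h, and CASP8 by 0.03, 0.09 and −0.22. At 24 h CASP8 stood at −1.74, the only adaptor at least 2-fold lower, on the TNF-α array with the GAPDH gap of 6.28.

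**Figure D4:**
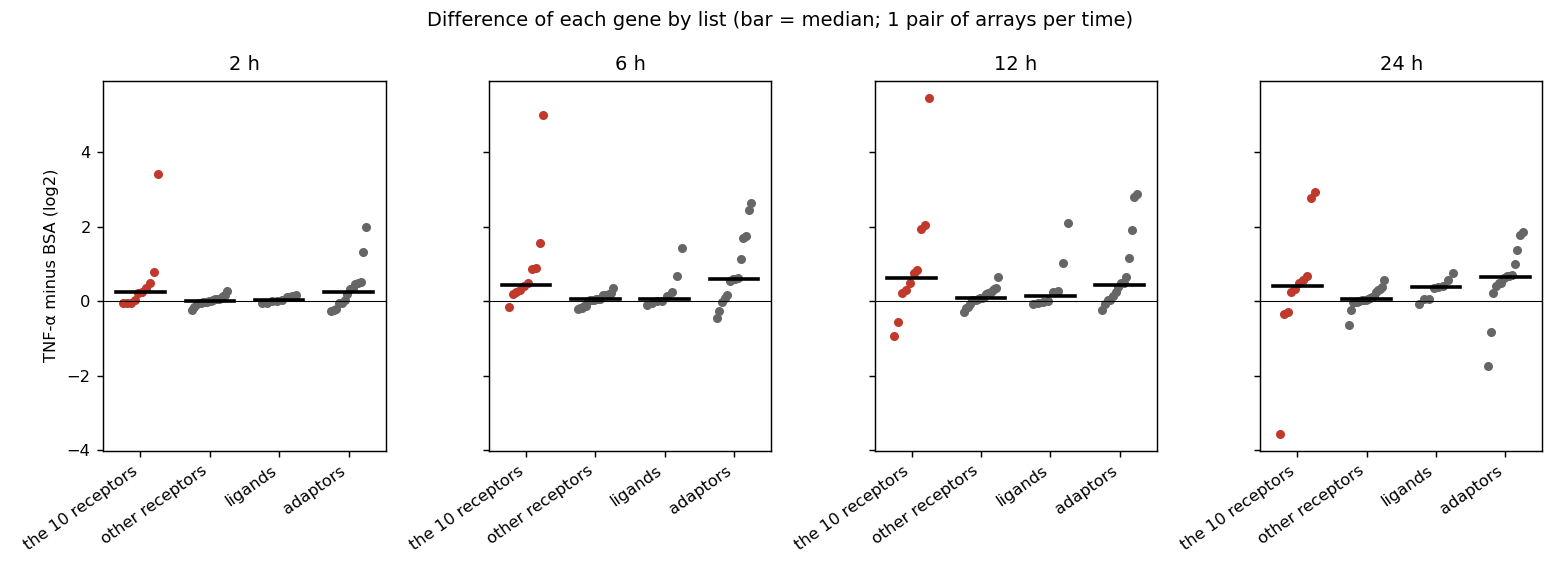
TNF-α minus BSA difference (log2, vertical axis) of each gene at 2, 6, 12 and 24 h, for the 10 receptors (red) and for the other receptors, the ligands and the adaptors (grey), with a bar at each list's median and 1 pair of arrays per time. At 12 h the 10 receptors spread from −0.93 to 5.46, and the 18 other receptors lie between −0.29 and 0.67. The lists were chosen with earlier results of these data known, so this contrast is not a test.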

How the data were processed

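RNA of NS-SV-AC cells given TNF-α or BSA was measured on 8 Affymetrix GeneAtlas arrays. The authors deposited log2 levels made with RMA, per the submitters' processing notes. Which software made them, whether all arrays were normalised together and which build applies is not given in the sources used here. Of 49386 probe sets, 93 are array controls, 2713 have no symbol in the platform annotation and 1327 have several, and these were left out. The remaining 45253 belong to 18239 genes, with 18180 Entrez IDs matched to RefSeq and 62 not. The brightest probe set (highest mean over the 8 arrays) stood for a gene.

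Differences were fitted with limma 3.58.1 in R 4.3.3 with treatment and time as factors, over 4 times and from 2 to 12 h, and with treatment by log2 hours. P-values were adjusted over all genes (Benjamini-Hochberg, threshold 0.05, two-sided). The steps were also run on simulated data, as a check of the mean estimates only, so this run does not bear on how reliable the calls are. All 10 receptors are named. Of each other list up to 4 genes are named, those called first and then those with the largest mean difference from 2 to 12 h, and for each called receptor the 4 genes most like it; FASLG, FADD and CASP8 were added for their known roles after their values were seen. The receptors, lists and tests were chosen with earlier results of these data known. CD40LG, TNFRSF6B, TRAF2, RIPK1, BIRC3 and AMY1A are not analysed here. Alternatives were the mean of probe sets, each probe set by itself, quantile normalisation again, median centring, a filter at a mean of 4, trended robust variance, array weights, no time term, leaving out each pair, and 1.5-fold. The number of arrays limits the precision.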

Additional observations from a re-analysis of the deposited data

Results flagged for a closer look

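Among 36 sets of 4 arrays (18 probe sets, each in TNF-α and in BSA), 6 held an array far from the other 3 of its treatment, where chance gives about 1 in 20; the arrays of a treatment differ in time. For TNFRSF10B, the second brightest probe set was highest at 24 h in both treatments, at 6.00 in TNF-α and 4.78 in BSA, and the dimmest was highest at 24 h in BSA, at 4.82. TNFRSF12A was lowest in TNF-α at 24 h, at 5.12, on the array with the GAPDH gap of 6.28. The brightest probe set of TNFRSF21 was lowest in TNF-α at 2 h, at 8.58. The second probe set of CD40 was highest in TNF-α at 12 h, at 4.07.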

How the results depend on the processing

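With 1 array per treatment and time, precision is limited by the number of arrays. From 2 to 12 h, 2 receptors and 67 of all genes were called. With the mean of probe sets these were 1 and 36, with time left out 0 and 5, and leaving out each pair in turn gave 0 to 5 receptors and 0 to 1094 genes. Trended robust variance gave 121 genes, with TNFRSF9 at an adjusted p of 0.142 and TNFRSF12A at 0.0290 by limma. Without the 2 h pair, the fit that called 1094 genes, FAS (1.75), CD40 (1.45) and TNFRSF12A (0.67) also passed. Over the 4 times 0 receptors and 3 genes were called, against 1 gene with the mean of probe sets, 5 with trended robust variance, 5 with time left out, 62 and 2 receptors with array weights, and 0 to 67 genes and 0 to 2 receptors leaving out each pair. At 1.5-fold, 2, 4, 5 and 4 receptors were higher at 2, 6, 12 and 24 h, and 1 was lower at 12 h and 1 at 24 h. At 12 h 2.7% of all genes were higher by that fold. The share of all genes was not counted for the other 1.5-fold counts, so these are not results about the receptors. At 24 h 6.1% of all genes were higher and 6.67% lower even at 2-fold.

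Each difference or change with time that changed sign was one that its own model had not called, and the cause was not tested. Over the 4 times LTBR became −0.048 with the mean of probe sets and −0.0053 with centring, and array weights gave −0.059 for TNFRSF10D and 0.46 for TNFRSF12A. Leaving out each pair gave −0.028 to 0.22 for TNFRSF10A, −0.14 to 0.34 for TNFRSF10D, −0.039 to 0.26 for TNFRSF11B, −0.86 to 0.61 for TNFRSF12A and −0.16 to 0.10 for LTBR. From 2 to 12 h the mean of probe sets gave 0.0014 for TNFRSF10D and −0.0063 for LTBR, and leaving out each pair −0.34 to 0.26 for TNFRSF10D, −0.18 to 0.22 for TNFRSF11B and −0.093 to 0.23 for LTBR. The change with time of LTBR was 0.019 with the mean of probe sets and 0.010 with quantile normalisation again. Leaving out each pair, that change was −2.21 to 0.81 for TNFRSF9, −0.37 to 0.084 for TNFRSF10A, −0.42 to 0.12 for TNFRSF10D, −0.28 to 0.075 for TNFRSF11B, −2.02 to 0.13 for TNFRSF12A and −0.069 to 0.18 for LTBR.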
